A study of Mus musculus with 2 samples.

Results

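The 9 genes described here are known genes of the glucocorticoid response, measured in primary mouse fibro-adipogenic progenitors (FAPs). FAPs are mesenchymal cells of the muscle interstitium with the potential to become fibroblasts or adipocytes. The 9 genes are the receptor gene Nr3c1 and 8 genes that the activated receptor is known to induce, namely Fkbp5, Tsc22d3, Zbtb16, Sgk1, Klf9, Mt1, Mt2 and Hsd11b1. They were picked by gene symbol, and all 9 were found among the 26082 genes listed for both libraries. The study asked how TGFBR3 affects the adipogenesis of FAPs. Wild-type FAPs, sorted by flow cytometry from mouse hind limb muscle, had been transfected with plasmids overexpressing TGFBR3 (labelled TGFBR3 OE) or with vector (labelled control), and then exposed to adipogenic medium. The medium of both held 20% FBS, 10 μg/ml insulin, 0.5 mM IBMX and 0.25 μM dexamethasone, a synthetic glucocorticoid. The study's methods describe this as an induction medium, followed by a maintenance medium whose listed contents leave out IBMX and dexamethasone. The time of harvest is not given here, so whether the hormone was still present then is not known. No library without dexamethasone was analysed here, so the values compare the response between the transfections and do not measure induction by the hormone. Each label has 1 library, the number of animals or cultures behind it is not stated, and the age of the mice is not given in the labels.

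Glucocorticoids enter the cell and bind the receptor encoded by Nr3c1, which is held in the cytoplasm by the chaperone HSP90 and its partners. The bound receptor moves to the nucleus, where it binds glucocorticoid response elements and switches on genes such as Fkbp5 and Tsc22d3, or dampens inflammatory genes. Dexamethasone is a standard part of adipogenic cocktails, in which it acts early together with IBMX, a compound that raises cAMP.

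Total deposited counts were 62321027 for the library labelled TGFBR3 OE and 83779203 for the library labelled control. Levels are given as FPKM, the count of a gene scaled by its exon length and by the size of the library. Differences are log2 ratios of (FPKM + 1), TGFBR3 OE over control, and a ratio of 1 is 2-fold. The added 1 shrinks the ratio of low genes. The interval given with a value is its 95% Clopper-Pearson interval, which is exact and comes from how a gene's counts split between the libraries. Such intervals cover counting error only, and no difference has a replicate check. Tgfbr3 itself stood at FPKM 36.9 and 35.1, a log2 ratio of 0.07 (interval 0.04 to 0.10). The transfection is thus not visible at its gene in these libraries, and every direction is that of the labels. The study also measured TGFBR3 by RT-PCR in transfected FAPs, and those values are not compared here. Among genes reaching FPKM 1 in both, the median gene was shifted by 0.15 without the added 1, and centred values have this shift removed. Ratios also declined with exon GC content, and their bin medians (20 bins) ran from 0.45 at the lowest GC to -0.25 at the highest. Of the FAP markers, Pdgfra (FPKM 30.5 and 32.6) and Ly6a (1013 and 706) were abundant and Lum was nearly absent (0.27 and 0.03). The summed FPKM of 9 macrophage markers was 0.91 against 0.54, with Adgre1, Tyrobp and Fcer1g at 0 counts in both libraries. That of 5 muscle cell markers was 1.65 against 1.30, and that of 6 endothelial markers 2.40 against 2.03.

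All 9 genes passed the filter of a mean FPKM of at least 1, as did 11213 genes in all. None of the 9 was 2-fold higher or 2-fold lower in the library labelled TGFBR3 OE, where 3.14% of the tested genes were 2-fold higher and 1.03% were 2-fold lower. The receptor gene Nr3c1 was the most raised of the 9, and both metallothionein genes were the most lowered. At the looser threshold of 1.5-fold, Nr3c1 was the only higher gene, and Mt1 and Mt2 were the only lower ones. Of the tested genes, 13.3% were 1.5-fold higher and 4.91% were 1.5-fold lower. The median log2 ratio was -0.09 over the 9 genes and 0.14 over all tested genes, of which 7079 were higher and 4115 were lower. The 4 higher and 5 lower genes each had a counting interval that left out 0. The scaling of the libraries moved most values by more than these intervals.

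**Figure D1:**
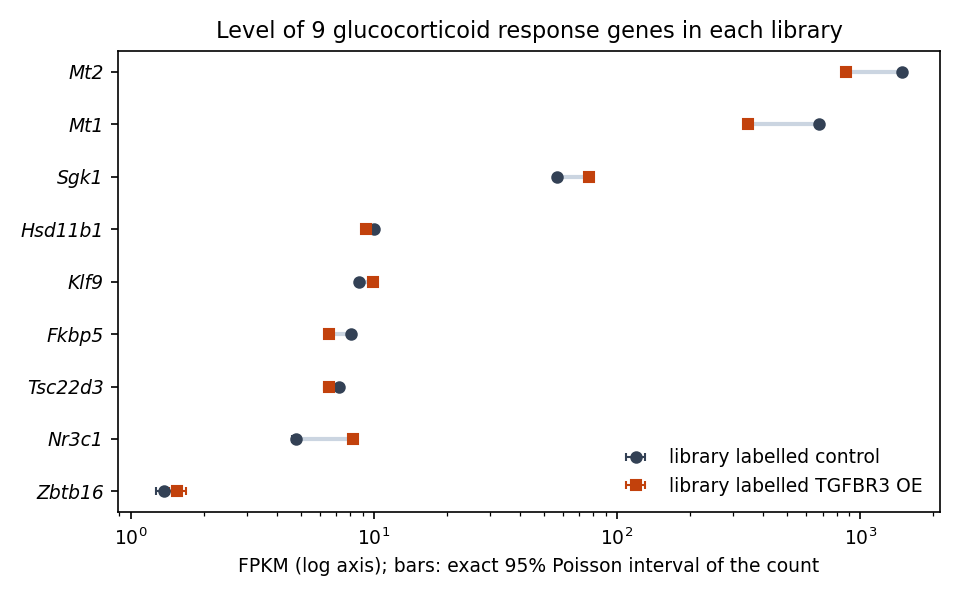
FPKM (log axis) of the 9 genes in the library labelled control (dark circles) and the library labelled TGFBR3 OE (orange squares), 1 library each, with the exact 95% Poisson interval of the count as bars. Mt2, at 1481 and 878, and Mt1, at 676 and 347, sit far above the other genes, and Nr3c1 is the gene that moves up most, from 4.78 to 8.25.

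Nr3c1 (ENSMUSG00000024431) encodes the glucocorticoid receptor and lies on chromosome 18 of mm10 from 39410545 to 39519421, minus strand. FPKM reached 8.25 under the label TGFBR3 OE and 4.78 under the label control, from 4302 and 3399 counts. It was thus higher in the library that had fewer counts in total. On the log2 scale the ratio was 0.68 (interval 0.62 to 0.73), and 1030 of the 11213 tested genes had a larger one. As a plain ratio of FPKM this is 1.73-fold (interval 1.65 to 1.81). The centred value was 0.54, and removal of the GC trend left 0.39, both short of 1.5-fold. Its exons have a GC content of 45.9%, and the median ratio of the genes in the same GC bin was 0.28. In the control library Nr3c1 was the 8th of the 9 genes by FPKM, and in the other library it was the 6th. Nr3c2, which encodes the mineralocorticoid receptor, the other receptor that binds glucocorticoids, was scarce in both, with 85 and 87 counts.

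The receptor matures on HSP90, and co-regulators carry its signal to the genes. Of 18 such partner genes, 17 were tested. Among them 16 were higher and 1 was lower, where 7079 of the 11213 tested genes were higher, with a median log2 ratio of 0.24 beside 0.14 for all tested genes. After centring the median was 0.12, beside 0.01 for all tested genes. Only Hsp90aa1, the inducible HSP90 gene, was 2-fold higher, as were 3.14% of all tested genes. Its FPKM was 105 against 46.4, which gave a log2 ratio of 1.16 (interval 1.13 to 1.18) or, with the GC trend removed, 0.87. Hsp90ab1, the constitutive HSP90 gene, was at 597 and 538. Ptges3, which encodes the co-chaperone p23, was at 33.1 and 19.1, a log2 ratio of 0.76, and the co-repressor gene Ncor1 at 6.37 and 3.72, a log2 ratio of 0.64. With the GC trend removed these were 0.38 and 0.36. Fkbp4, whose product helps the receptor on its way to the nucleus, was at 23.9 and 25.0, a log2 ratio of -0.07.

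Fkbp5 (ENSMUSG00000024222), on chromosome 17 from 28399094 to 28517527, minus strand, encodes the co-chaperone FKBP51, which lowers the affinity of the receptor for hormone and so acts as its feedback inhibitor. FPKM was 6.52 in the library labelled TGFBR3 OE and 8.10 in the control library, from 4192 and 7084 counts. This gave a log2 ratio of -0.28 (interval -0.32 to -0.23). It was -0.41 when centred and -0.43 with the GC trend removed. Fkbp5 therefore stood on the opposite side of 0 from the receptor gene under each scaling. The ratio is 1.24-fold lower on the plain scale (interval 1.20 to 1.29).

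Tsc22d3 (ENSMUSG00000031431), on chromosome X from 140539528 to 140600659, minus strand, encodes GILZ, a mediator of the anti-inflammatory action of glucocorticoids. It was at FPKM 6.53 and 7.17, from 1927 and 2876 counts. That is a log2 ratio of -0.12 (interval -0.19 to -0.04), a difference smaller than the shift of the median gene, and it was -0.25 when centred. Of its family members, Tsc22d2 was at 6.79 and 3.67, Tsc22d1 at 21.5 and 16.8, and Tsc22d4 at 9.92 and 9.55. Tsc22d4 had a log2 ratio of 0.05 and, like Tsc22d3, was below 0 when centred, at -0.09.

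Klf9 and Zbtb16 encode transcription factors that glucocorticoids induce, and neither had a direction that held under all scalings. Klf9 (ENSMUSG00000033863), on chromosome 19 from 23141226 to 23168134, plus strand, was at FPKM 9.97 and 8.70, from 3258 and 3872 counts, a log2 ratio of 0.18 (interval 0.12 to 0.24). The value was 0.04 when centred and -0.05 with the GC trend removed. Zbtb16 (ENSMUSG00000066687), which encodes PLZF, lies on chromosome 9 from 48654297 to 48836222, minus strand. It was the lowest of the 9 genes, at FPKM 1.56 and 1.37, from 559 and 669 counts. The ratio was 0.11 on the log2 scale (interval 0.01 to 0.21), and 0.02 when centred. With counts scaled by TMM factors, both were slightly below 0, at -0.025 for Klf9 and -0.031 for Zbtb16.

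Sgk1 (ENSMUSG00000019970), on chromosome 10 from 21882184 to 21999903, plus strand, encodes a serum- and glucocorticoid-induced kinase that acts downstream of PI3K. RefSeq (GRCm38.p6) gives it 6 start sites with a promoter window of 250 bases before to 50 bases after the start. In the windows of the members the full palindromic response element was searched as AGAACA and TGTTCT with 3 bases between them, on both strands, together with its arm TGTTCT alone. A full element holds both arms and is counted under each. Only 1 of the 14 windows found for 7 members held the full element, before the Sgk1 start at 21993890, and 3 of all 32851 windows (0.009%) held it. The stretch from -250 to -151 of that start is shown because it carries the element, with the arms in capitals (chr10:21993640-21993739, plus strand).
Sgk1: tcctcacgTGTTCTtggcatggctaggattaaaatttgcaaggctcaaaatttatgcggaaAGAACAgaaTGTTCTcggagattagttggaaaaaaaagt
The element begins at -189. The arm alone occurred in 19.0% of all windows, and among the members in 1 window of Tsc22d3 and 3 of Sgk1. The windows of Fkbp5, Klf9, Mt1, Mt2 and Hsd11b1 held neither, which says only that these letters are not within them. Windows of Nr3c1 and Zbtb16 were not used here.

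Sgk1 was the most abundant of the targets after the metallothioneins, at FPKM 76.9 in the library labelled TGFBR3 OE and 56.9 in the control library. The counts were nearly equal, at 25578 and 25796, although the first library held fewer counts in all. Sgk1 had a log2 ratio of 0.43 (interval 0.40 to 0.45). It was 0.28 when centred and 0.29 with the GC trend removed, and 2591 tested genes had a larger one. The direction was the same under each scaling tried, with a lowest value of 0.18. A single gene-level count cannot tell which of the start sites gave these reads. Of its family, Sgk3 was at 136 and 72 counts and Sgk2 at 3 and 0.

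Hsd11b1 (ENSMUSG00000016194), on chromosome 1 from 193221634 to 193264075, minus strand, encodes the enzyme that turns inactive 11-keto steroids back into active glucocorticoid inside the cell. It was at FPKM 9.30 and 10.0, from 2686 and 3932 counts. Its difference on the log2 scale was -0.09 (interval -0.16 to -0.03), -0.23 when centred and -0.41 with the GC trend removed. H6pd, which makes the cofactor of this reaction, was at FPKM 141 and 133, a log2 ratio of 0.08. The opposing enzyme gene Hsd11b2 was near the floor, with 10 and 44 counts.

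**Figure D2:**
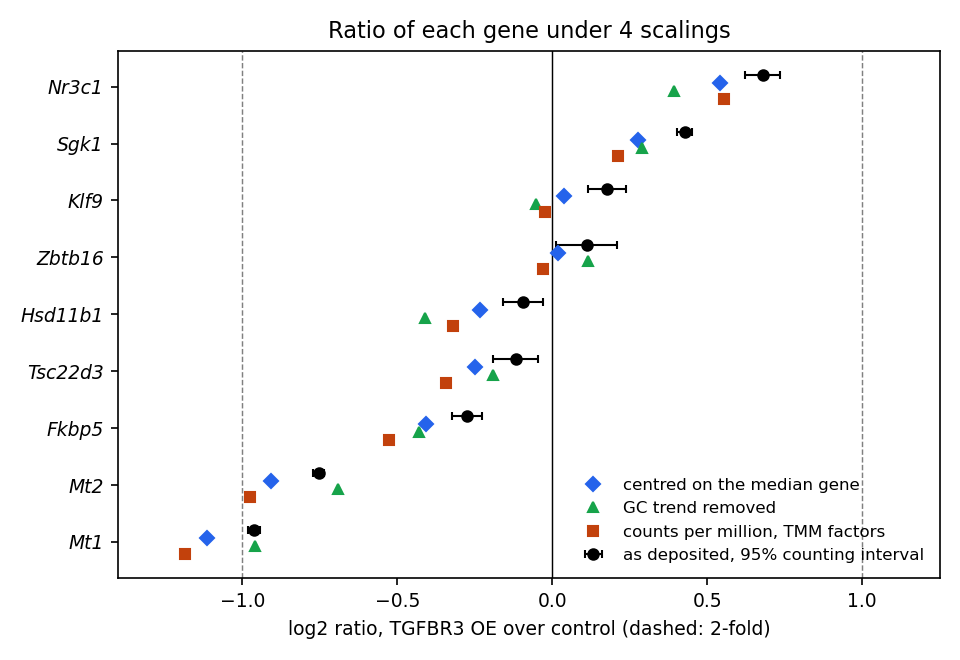
Log2 ratio of each of the 9 genes, TGFBR3 OE over control, as deposited on the (FPKM + 1) scale (black circles with the 95% counting interval), centred on the median gene (blue diamonds), with the GC trend removed (green triangles), and from counts scaled to library size with TMM factors (orange squares). Nr3c1 and Sgk1 lie above 0 and Fkbp5, Tsc22d3, Hsd11b1, Mt1 and Mt2 below 0 under all 4, and Mt1 crosses the dashed 2-fold line under centring (-1.11) and TMM (-1.18).

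Mt1 and Mt2 encode metallothioneins, small cysteine-rich proteins that bind zinc and copper. Their genes are induced by metals through the factor MTF1 and by glucocorticoids. Mt2 (ENSMUSG00000031762) lies on chromosome 8 from 94172664 to 94173568 and Mt1 (ENSMUSG00000031765) from 94179082 to 94180327, both on the plus strand and 5.51 kb apart. The core of the metal response element was searched as TGCACNC or TGCGCNC on both strands. It occurred at least once in 25.7% of all 32851 promoter windows and at 3 or more positions in 1.97% of them. The Mt1 window held 3 matches and the Mt2 window 4. The stretches below are those that carry most of them, with the matches in capitals (chr8:94179029-94179088 before the Mt1 start, chr8:94179089-94179118 from the start on, and chr8:94172468-94172587 before the Mt2 start, plus strand).
Mt1, -60 to -1: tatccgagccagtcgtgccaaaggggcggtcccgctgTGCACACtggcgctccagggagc
Mt1, 1 to 30: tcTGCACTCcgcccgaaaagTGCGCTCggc
Mt2, -150 to -31: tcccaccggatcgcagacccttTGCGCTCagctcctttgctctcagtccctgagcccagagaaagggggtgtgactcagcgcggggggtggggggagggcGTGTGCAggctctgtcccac
The RefSeq starts used for these positions, 94179089 for Mt1 and 94172618 for Mt2, differ from the GENCODE gene starts given above. RefSeq places the Mt1 start before 2 of its matches, so positions depend on the annotated start. Neither window held the palindromic cAMP response element, found in 1.79% of all windows.

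Mt1 was at FPKM 347 in the library labelled TGFBR3 OE and 676 in the control library, from 29302 and 77826 counts. Its log2 ratio was the lowest of the 9, at -0.96 (interval -0.98 to -0.94), and 129 of the 11213 tested genes had a lower one. This is 1.95-fold lower on the plain scale (interval 1.92 to 1.98), just short of 2-fold. After centring, where 1.60% of tested genes were 2-fold lower, the value was -1.11 and past the threshold. With the GC trend removed it was -0.96, since the median ratio in its GC bin was close to 0 (-0.003).

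Mt2 followed in the same direction, at FPKM 878 and 1481, from 35025 and 80437 counts. Here the log2 ratio was -0.75 (interval -0.77 to -0.74), with 278 tested genes lower, and the plain difference was 1.69-fold (interval 1.67 to 1.71). It was -0.91 when centred and -0.69 with the GC trend removed. Together the pair took 0.189% of all counts in the control library and 0.103% in the library labelled TGFBR3 OE. The counting intervals of Mt1 and Mt2 did not overlap, and Mt1 was the lower of the pair under every scaling except removal of the exon length trend. With that trend removed, Mt1 was at -0.92 and Mt2 at -0.95. This removal used merged exon lengths of 1246 bases for Mt1 and 588 for Mt2. The Mt1 length includes sequence that is intronic in its first annotated transcript. The removal was not run with spliced lengths, so whether the reversal depends on that length was not tested.

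The levels of the pair cannot be compared by the deposited FPKM alone. The lengths behind those values were 1245 bases for Mt1 and 588 for Mt2, which for Mt1 include sequence that is intronic in its first annotated transcript. With the spliced lengths of the first annotated transcripts, 549 and 511 bases, the values were 786 and 1533 for Mt1 and 1010 and 1703 for Mt2. By the deposited FPKM, Mt2 was 2.53 and 2.19 times Mt1, and this factor rests on the lengths. A non-coding gene on the opposite strand, Gm45774, overlaps 432 of the 588 exon bases of Mt2. It had 432 and 650 counts, and whether the counting used strand is not given in the sources used here, so reads of the pair cannot be told apart with certainty.

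**Figure D3:**
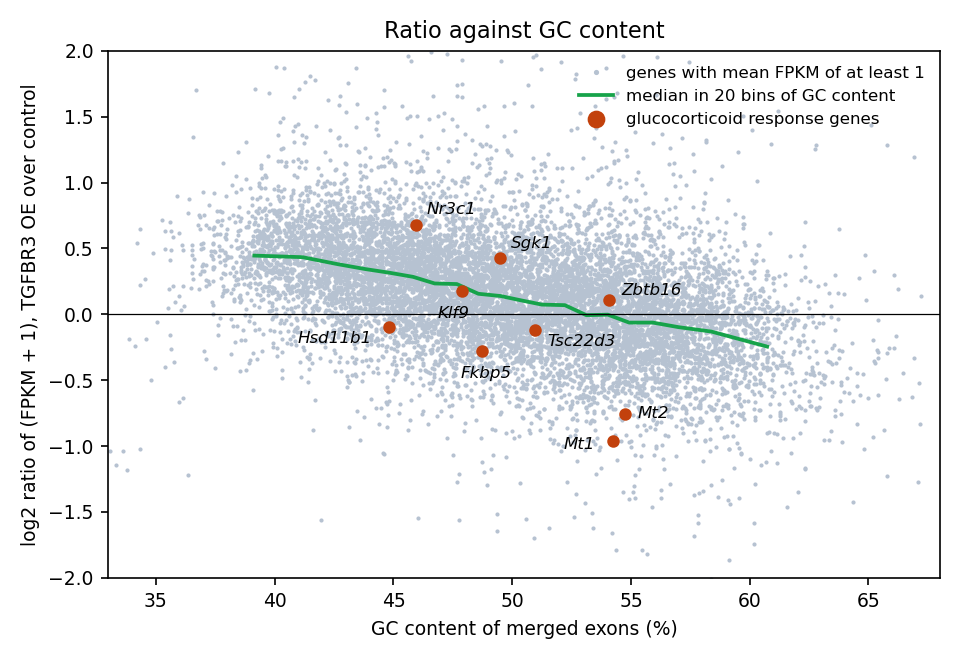
Log2 ratio of (FPKM + 1) against the GC content of the merged exons (%) for the tested genes (grey dots, 109 of them outside the axes or without a GC value), with the median in 20 bins (green line) and the 9 genes (orange). The line falls from 0.45 to -0.25, Mt1 and Mt2 lie far below it, and Nr3c1 lies above it by 0.39.

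Other zinc-related genes lay on both sides of 0. With Mt1 and Mt2 included, 8 of 10 listed genes were tested, of which 3 were higher and 5 were lower, where 7079 of the 11213 tested genes were higher. The median log2 ratio was -0.25 beside 0.14 for all tested genes. Mt1 and Mt2 are both among the 5 lower genes and have the lowest ratios of the list, so this median does not describe the other zinc-related genes alone. Mtf1 was at FPKM 4.31 and 2.76, a log2 ratio of 0.50 (interval 0.43 to 0.56). Slc30a1, a zinc exporter gene that MTF1 also induces, was at 2.21 and 1.63, a log2 ratio of 0.29 that became 0.003 with the GC trend removed. Mt3 had 14 and 22 counts. Hmox1, a stress gene that responds to metals and heme, was at 1650 and 1914, a log2 ratio of -0.21.

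Of 7 adipocyte markers tested, 6 were lower, where 4115 of the 11213 tested genes were lower. Cfd (-1.29) and Adipoq (-1.07) were 2-fold lower, as were 1.03% of all tested genes, and Pparg (0.29) was higher. The summed FPKM over 8 adipocyte markers was 50.7 against 89.7. Of 8 FAP markers tested, 6 were lower and 2, Ly6a (0.52) and Dcn (0.14), were higher. Dpt (-1.12) and Col3a1 (-1.05) were 2-fold lower, and Col1a1 stood at FPKM 467 and 870 (-0.89). The sum over 9 FAP markers, 1738 against 1954, is made up mostly of Ly6a and Col1a1, which went in opposite directions. In bulk RNA, fewer cells of a type and less RNA per cell cannot be told apart, and the part of these markers in the values of Mt1, Mt2 or the other members was not tested.

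Other genes that glucocorticoids induce lay on both sides of 0. Of 30 listed genes, 22 were tested, with 14 higher and 8 lower. This split was near that of all 11213 tested genes, of which 7079 were higher and 4115 were lower. The median log2 ratio was 0.24 beside 0.14 for all tested genes, and the centred median was 0.10 beside 0.01. The only 2-fold difference was in Anxa1, which encodes the anti-inflammatory protein annexin A1, where 3.14% of all tested genes were 2-fold higher. Anxa1 was at FPKM 616 and 241, a log2 ratio of 1.35 (interval 1.34 to 1.36) that was 0.97 with the GC trend removed. On the lower side stood Cebpd, at 50.7 and 92.8, a log2 ratio of -0.86, and Cebpb, at 89.4 and 160, a log2 ratio of -0.83 that was -0.59 with the GC trend removed. Their products are the early adipogenic factors that dexamethasone and IBMX are known to induce. Centred, Cebpd was at -1.01. Per1, a clock gene that glucocorticoids induce, was at 10.2 and 7.73, a log2 ratio of 0.36, and the phosphatase gene Dusp1 at 21.6 and 17.4, a log2 ratio of 0.29.

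Genes that the receptor is known to repress in inflammation were examined next. Of 18 listed genes, 12 were tested, with 10 higher and 2 lower, where 7079 of the 11213 tested genes were higher. The median log2 ratio was 0.35 beside 0.14 for all tested genes. It was 0.20 when centred, beside 0.01, and 0.12 with the GC trend removed. Il6, at FPKM 8.05 and 1.83, Nos2, at 175 and 55.2, and Ptgs2, at 37.8 and 14.1, were 2-fold higher, as were 3.14% of all tested genes, with log2 ratios of 1.68, 1.65 and 1.36. Without the GC trend Ptgs2 was at 0.91. The chemokine genes Ccl2 (0.32) and Ccl7 (0.39) were within 2-fold, and with the GC trend removed they were close to 0, at 0.0027 and 0.0068.

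Because both media also held IBMX, 15 genes of the cAMP response were examined, of which 7 were tested. Per1 and Dusp1 are among these 7 and were also counted among the glucocorticoid-induced genes above, so these lists are not separate readouts. All 7 were higher as deposited, none 2-fold, where 7079 of the 11213 tested genes were higher. Their median log2 ratio was 0.29 beside 0.14 for all tested genes, and 0.15 when centred beside 0.01. With the GC trend removed, the phosphodiesterase gene Pde10a was at -0.0094 and the other 6 stayed above 0. Nr4a1, an orphan receptor gene induced by cAMP, was at FPKM 2.69 and 1.34, a log2 ratio of 0.66 (interval 0.54 to 0.77), and Crem, which encodes a cAMP-responsive factor, at 1.88 and 0.95, a log2 ratio of 0.56. Without the added 1 they were at 1.01 and 0.98, and with the GC trend removed at 0.72 and 0.13.

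**Figure D4:**
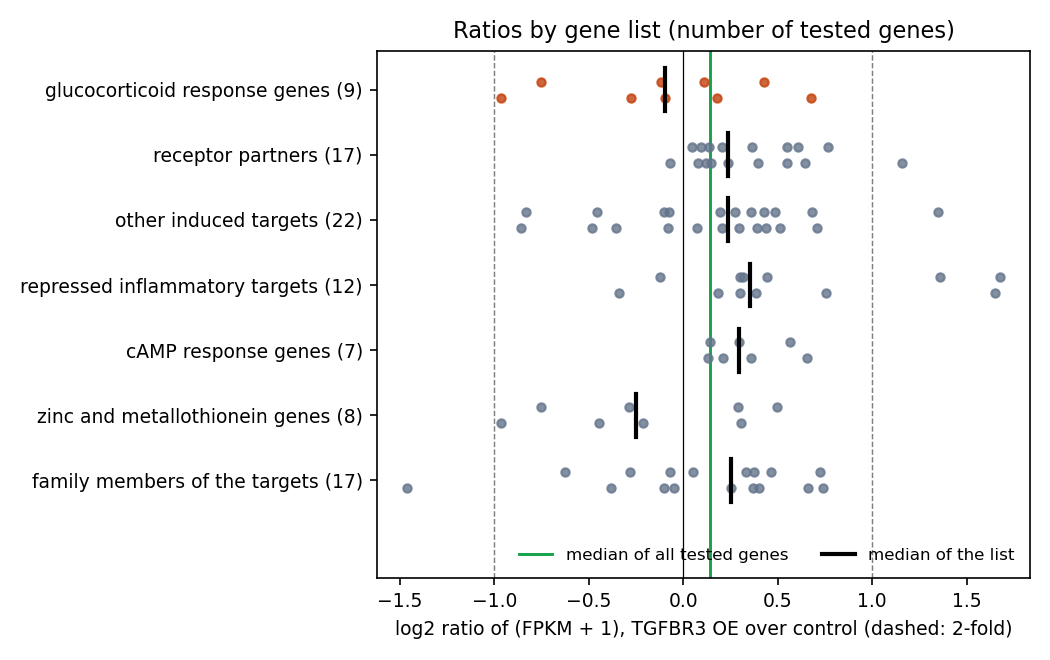
Log2 ratio of (FPKM + 1) of each tested gene in 7 lists, with the number of tested genes in parentheses, the median of each list (black bar) and the median of all tested genes (green line, 0.14). The 9 genes in the top row spread from -0.96 to 0.68 around a median of -0.09, and the 2-fold points lie in other rows, at Hsp90aa1, Anxa1, Il6, Nos2, Ptgs2 and Klf2. The list of steroid supply and transport genes, which holds Hsd3b1 at 2.38, is not drawn.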

How the data were processed

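RNA of mouse FAPs was sequenced as paired reads of 150 nt in 1 library per label. According to the study's methods, alignment to mm10 was done in STAR and gene counting in FeatureCounts, whereas the submitters' processing notes list cutadapt 1.9, HISAT2 2.2.1, StringTie 2.1.6, DESeq2 and edgeR. Which set made the files was not settled. The authors deposited raw counts per gene and FPKM values rounded to 2 decimals. Per the labels, the second strand was marked with dUTP.

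FPKM was the main measure, with a pseudocount of 1 and a filter on a mean FPKM of at least 1. Counts gave the intervals (95%), the floor of 3 counts and TMM (edgeR 4.0.16) or median-of-ratios (DESeq2 1.42.0) scaling. No model was fitted and no p-value is given, because a group is 1 library. Trends over GC content and exon length were removed as medians in 20 bins. Positions, exon lengths and GC content came from GENCODE M21, which holds 99.7% of the deposited identifiers, and promoters from RefSeq GRCm38.p6. Calculations were tested on simulated counts.

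The members and the gene lists were chosen with earlier results of these data known. Named genes are the members, Tgfbr3, markers, up to 3 genes per list with the largest absolute ratio and a mean FPKM of at least 1, and genes of set interest (Nr3c2, Hsd11b2, Fkbp4, Mtf1, Slc30a1, Per1, Dusp1, Cebpb, Cebpd). Hsp90ab1, Tsc22d1, Tsc22d4, Pde10a, Sgk2, Sgk3, H6pd, Mt3, Hmox1, Ccl2, Ccl7, Gm45774 and the genes of steroid synthesis other than Hsd3b1 were named after their values were seen. Tat, Mt4, Pax7, Myf5 and Myod1 were not analysed here.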

Additional observations from a re-analysis of the deposited data

How the results depend on the processing

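With 1 library per label no library could be left out. No paired analysis was possible because each label has 1 library and no test was run. Across 11 alternatives per gene, Nr3c1 ranged from 0.39 to 0.79, Sgk1 from 0.18 to 0.50, Fkbp5 from -0.56 to -0.21, Tsc22d3 from -0.37 to -0.06, Hsd11b1 from -0.41 to -0.03, Mt1 from -1.22 to -0.89 and Mt2 from -1.01 to -0.68, each keeping its direction. Of the 99 values, 42 stayed within the counting interval. Klf9 turned to -0.025 with TMM factors, -0.056 with DESeq2 size factors and -0.052 with the GC trend removed, and Zbtb16 to -0.031 and -0.060 with these factors and to -0.068 with the exon length trend removed. The number of members 2-fold lower went from 0 to 1 when centred or with TMM factors (Mt1) and to 2 with DESeq2 size factors (Mt1 and Mt2), and at 1.5-fold 1 was higher and 2 were lower. The genes 2-fold higher, 352 of those tested, became 645, 728 and 739 with a pseudocount of 0.1, 0.01 or none, 1488 at 1.5-fold and 77 at 4-fold. Those 2-fold lower, 116, became 192, 203 and 207 with these pseudocounts, 179 when centred, 302 with TMM factors, 335 with DESeq2 size factors, 550 at 1.5-fold and 6 at 4-fold. The share of higher genes among the 2-fold ones was 75.2% as deposited, 59.5% when centred, 64.6% and 65.7% with the GC and length trends removed, 48.4% with TMM factors and 44.4% with DESeq2 size factors. The cause of these moves was not tested. Zbtb16, with the fewest counts of the members, had the widest interval.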

Other observations

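Among the relatives of the members, 17 of 27 listed genes were tested, with 10 higher and 7 lower. This split was near that of all 11213 tested genes, of which 7079 were higher and 4115 were lower. The median log2 ratio was 0.25 beside 0.14 for all tested genes, and 0.08 with the GC trend removed. Krüppel-like factors did not move together. Klf2, a factor that restrains adipogenesis, was 2-fold lower in the library labelled TGFBR3 OE, as were 1.03% of all tested genes. It was at FPKM 4.20 against 13.3, from 527 and 2273 counts, a log2 ratio of -1.46 (interval -1.58 to -1.35) that was -1.22 with the GC trend removed. Klf6, which promotes adipocyte differentiation, was at 31.7 and 18.8, a log2 ratio of 0.72, and Tsc22d2 had a log2 ratio of 0.74. With the GC trend removed these values were 0.34 and 0.39.

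Some genes of steroid synthesis were also counted. Hsd3b1, which acts in the synthesis of steroid hormones, had 583 counts in the library labelled TGFBR3 OE and 14 in the control library, FPKM 4.63 and 0.08, a log2 ratio of 2.38 (interval 2.29 to 2.44). The added 1 shrinks this ratio strongly, and without it the log2 ratio was 5.85. The bounds given next for Cyp11a1 and Cyp17a1 are free of the added 1, so they are not to be ranked against 2.38. Cyp11a1, which makes pregnenolone from cholesterol, had 426 counts against 0, at least 191-fold higher in its share of counts when the control is set at the floor of 3 counts. Cyp17a1 had 35 counts against 0, at least 15.7-fold higher on the same basis. Star, the cholesterol carrier of this pathway, had 158 and 91 counts, and Cyp11b1, which makes corticosterone, 0 and 13. Counting error alone is covered by these values, and no cause was tested.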
